A study of Mus musculus with 10 samples.

Results

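Integrins are cell-surface adhesion receptors, each built from an alpha and a beta subunit, and the chromatin around the genes of 8 subunits was followed in regulatory T cells (Tregs). The genes were Itgae (alpha E), Itgb7 (beta 7), Itga4 (alpha 4), Itgb1 (beta 1), Itgav (alpha v), Itgb8 (beta 8), Itgal (alpha L) and Itgb2 (beta 2). A peak of accessible chromatin was taken as a member where it overlapped the body of one of these genes or the 10 kb on either side on the mouse build GRCm38. This rule gave 82 of the 97385 peaks of the study, and the genes were 8 of 17634 protein-coding genes with a peak by the same rule. Of the 82 peaks, 81 held enough counts to be tested, and the remaining peak, the last of Itgb7, averaged 0.479 CPM (the count of a peak scaled to the total count of its library). Peaks are numbered along the direction of transcription of each gene.

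The study profiled Tregs by ATAC-seq, in which the Tn5 transposase cuts and tags open DNA, to learn how loss of the lipid kinase Vps34 changes their chromatin. All mice were 10 days old, were on a C57BL/6 background and carried the Foxp3Cre allele, which drives Cre recombinase and a yellow fluorescent reporter (YFP) from Foxp3, the gene that defines the Treg lineage, so that deletion was aimed at Foxp3-expressing cells. Vps34-deficient mice were Foxp3Cre Pik3c3 fl/fl, with both floxed copies of the gene that encodes Vps34, and controls were Foxp3Cre with Pik3c3 +/+ or +/fl. Total CD4+ Foxp3-YFP+ TCRb+ Tregs were sorted from spleen, giving 2 libraries of control and 4 of Vps34-deficient mice, and from lung, giving 2 per genotype. For spleen these are the numbers in the labels and in the table, whereas the methods and figure legends of the study give them the other way round. Every effect that uses spleen libraries rests on the labels. With the spleen libraries as labelled, 79.8% of the 6462 peaks over the genome that were higher by a log2 fold change above 1 in Vps34-deficient lung were higher in Vps34-deficient spleen too, and 77.3% of the 7104 lower ones were lower there, and the tissues share no library. The labels do not say whether libraries came from separate animals, whether animals were pooled or which sex they were. The p-values measure the spread between these libraries. Chromosome Y peaks summed to between 7.03 and 21.4 CPM for 5 libraries and to between 56.9 and 67.6 CPM for the rest, and every group held both kinds, so that no group consists of repeats of 1 animal.

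An integrin on a resting T cell is bent and binds weakly. Signals from the antigen or chemokine receptor open it from the inside through talin and kindlin, and it then grips its ligand and links to actin. Alpha E, known as CD103, pairs with beta 7 to bind E-cadherin and helps to hold T cells beside epithelium, whereas alpha 4 with beta 1 or beta 7 carries T cells to inflamed vessels and to gut. Alpha L beta 2, or LFA-1, binds ICAM molecules during adhesion and cell contact. Alpha v beta 8 on Tregs releases active TGF-beta from its latent form, a step of Treg function in inflamed tissue.

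The total count per library was between 9405823 and 22439699, with a median of 32 to 72 counts in a peak, so weak peaks rest on few counts. From 91.5% to 96.5% of the counts were even, as would arise if both mates of a read pair were counted. Counts may then overstate the number of fragments, and the study does not state how mates were counted. Pik3c3 itself had 6 peaks by the same rule. Its signal within 1 kb of an annotated start summed to between 52.5 and 67.3 CPM over the libraries. All 6 peaks together differed by a log2 fold change of 0.08 between genotypes in spleen (adjusted p = 0.820) and 0.09 in lung (adjusted p = 0.578, edgeR's quasi-likelihood test). These peaks therefore do not read out the deletion. Promoter peaks were present at all 7 Treg and T cell markers that could be measured, and the eighth, Trbc2, was not among the annotated protein-coding genes. Markers of other cells were present in part. Of the B cell list 2 of 6 had a promoter peak, Pax5 at 13.2 to 19.1 CPM over the libraries and Cd22 at up to 1.72, and Cd79a, Ms4a1 and Blk had none. Of the myeloid list Spi1 (9.58 to 17.2 CPM) and Cd14 (4.31 to 9.31) had a peak, and Csf1r, Lyz2, Marco and Siglecf had none. Of the lung epithelial list Epcam (16.8 to 24.8 CPM) and Nkx2-1 (up to 2.12) had a peak, and Sftpc, Scgb1a1, Krt8 and Cldn18 had none. Of the endothelial list Pecam1 (24.0 to 29.6 CPM), Kdr (2.76 to 6.63) and Cdh5 (up to 3.39) had a peak, and Tek, Vwf and Cldn5 had none. Of the CD8 and NK cell list Eomes (14.9 to 21.7 CPM), Prf1 (9.14 to 15.6), Cd8b1 (6.35 to 13.1) and Cd8a (1.49 to 9.53) had a peak, and Ncr1 and Klrb1c had none. In bulk samples, a change in the share of some cells and a change within each cell cannot be told apart.

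The sequences at the centre of 5 integrin peaks called between genotypes in lung or between tissues in control Tregs, each the peak with the smallest p-value of its gene in that effect, are shown first because the results below turn on these peaks. Each is the plus strand of GRCm38 from 5' to 3', 300 bases long. Capitals mark matches to 3 consensus motifs on either strand, AP-1 (TGANTCA), RUNX (TGTGGT, or ACCACA on the other strand) and STAT (TTCNNNGAA). No capitals means that none of the 8 motifs searched was found in that window.
Itgb8 peak 4 (chr12:119212040-119212339, plus strand): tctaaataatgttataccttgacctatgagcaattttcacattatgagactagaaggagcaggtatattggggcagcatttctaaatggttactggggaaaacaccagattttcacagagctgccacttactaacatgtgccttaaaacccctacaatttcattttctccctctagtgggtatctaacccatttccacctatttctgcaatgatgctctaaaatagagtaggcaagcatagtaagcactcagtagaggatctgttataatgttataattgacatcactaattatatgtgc
Itgb8 peak 9 (chr12:119185487-119185786, plus strand): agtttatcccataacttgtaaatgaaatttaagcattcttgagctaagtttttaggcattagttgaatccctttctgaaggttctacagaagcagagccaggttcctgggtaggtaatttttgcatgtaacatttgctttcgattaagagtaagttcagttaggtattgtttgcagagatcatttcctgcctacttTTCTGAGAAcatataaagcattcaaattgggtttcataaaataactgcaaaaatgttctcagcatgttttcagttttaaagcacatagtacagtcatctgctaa
Itgav peak 1 (chr2:83722956-83723255, plus strand): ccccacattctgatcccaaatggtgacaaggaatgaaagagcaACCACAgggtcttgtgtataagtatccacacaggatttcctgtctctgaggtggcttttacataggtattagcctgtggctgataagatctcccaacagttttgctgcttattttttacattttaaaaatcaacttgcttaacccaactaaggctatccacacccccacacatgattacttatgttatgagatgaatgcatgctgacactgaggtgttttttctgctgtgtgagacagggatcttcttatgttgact
Itgb1 peak 1 (chr8:128680003-128680302, plus strand): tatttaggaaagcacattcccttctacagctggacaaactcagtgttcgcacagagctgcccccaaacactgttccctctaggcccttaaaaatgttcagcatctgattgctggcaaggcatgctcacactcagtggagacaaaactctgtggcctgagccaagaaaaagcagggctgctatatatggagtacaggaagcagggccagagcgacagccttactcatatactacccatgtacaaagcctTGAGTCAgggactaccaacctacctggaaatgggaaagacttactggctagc
Itgb7 peak 4 (chr15:102230900-102231199, plus strand): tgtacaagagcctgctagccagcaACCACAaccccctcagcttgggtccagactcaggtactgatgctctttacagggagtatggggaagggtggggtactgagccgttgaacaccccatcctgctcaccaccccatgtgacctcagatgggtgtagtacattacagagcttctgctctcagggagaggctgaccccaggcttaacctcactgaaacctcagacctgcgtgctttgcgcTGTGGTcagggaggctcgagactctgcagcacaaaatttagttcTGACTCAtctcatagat

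The 82 peaks lay mostly within the genes. Introns held 48, coding exons 9 and untranslated or non-coding exons 3, while 11 were upstream and 11 downstream of the gene. The average level ran from 0.479 to 88.1 CPM and the width from 134 to 1516 bp. Itgae and Itgb8 had 15 peaks each, Itgav 12, Itgb2 11, Itga4 9, Itgb7 and Itgal 7 each, and Itgb1 6. All 7 peaks of Itgb7 also fell in the windows of its neighbours Rarg, the gamma receptor for retinoic acid, or Zfp740, and 8 of the 15 peaks of Itgae fell in those of Ncbp3 or Haspin. These peaks cannot be assigned to 1 gene. Of the 82 peaks, 12 lay within 1 kb of an annotated transcription start of the gene.

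**Figure D1:**
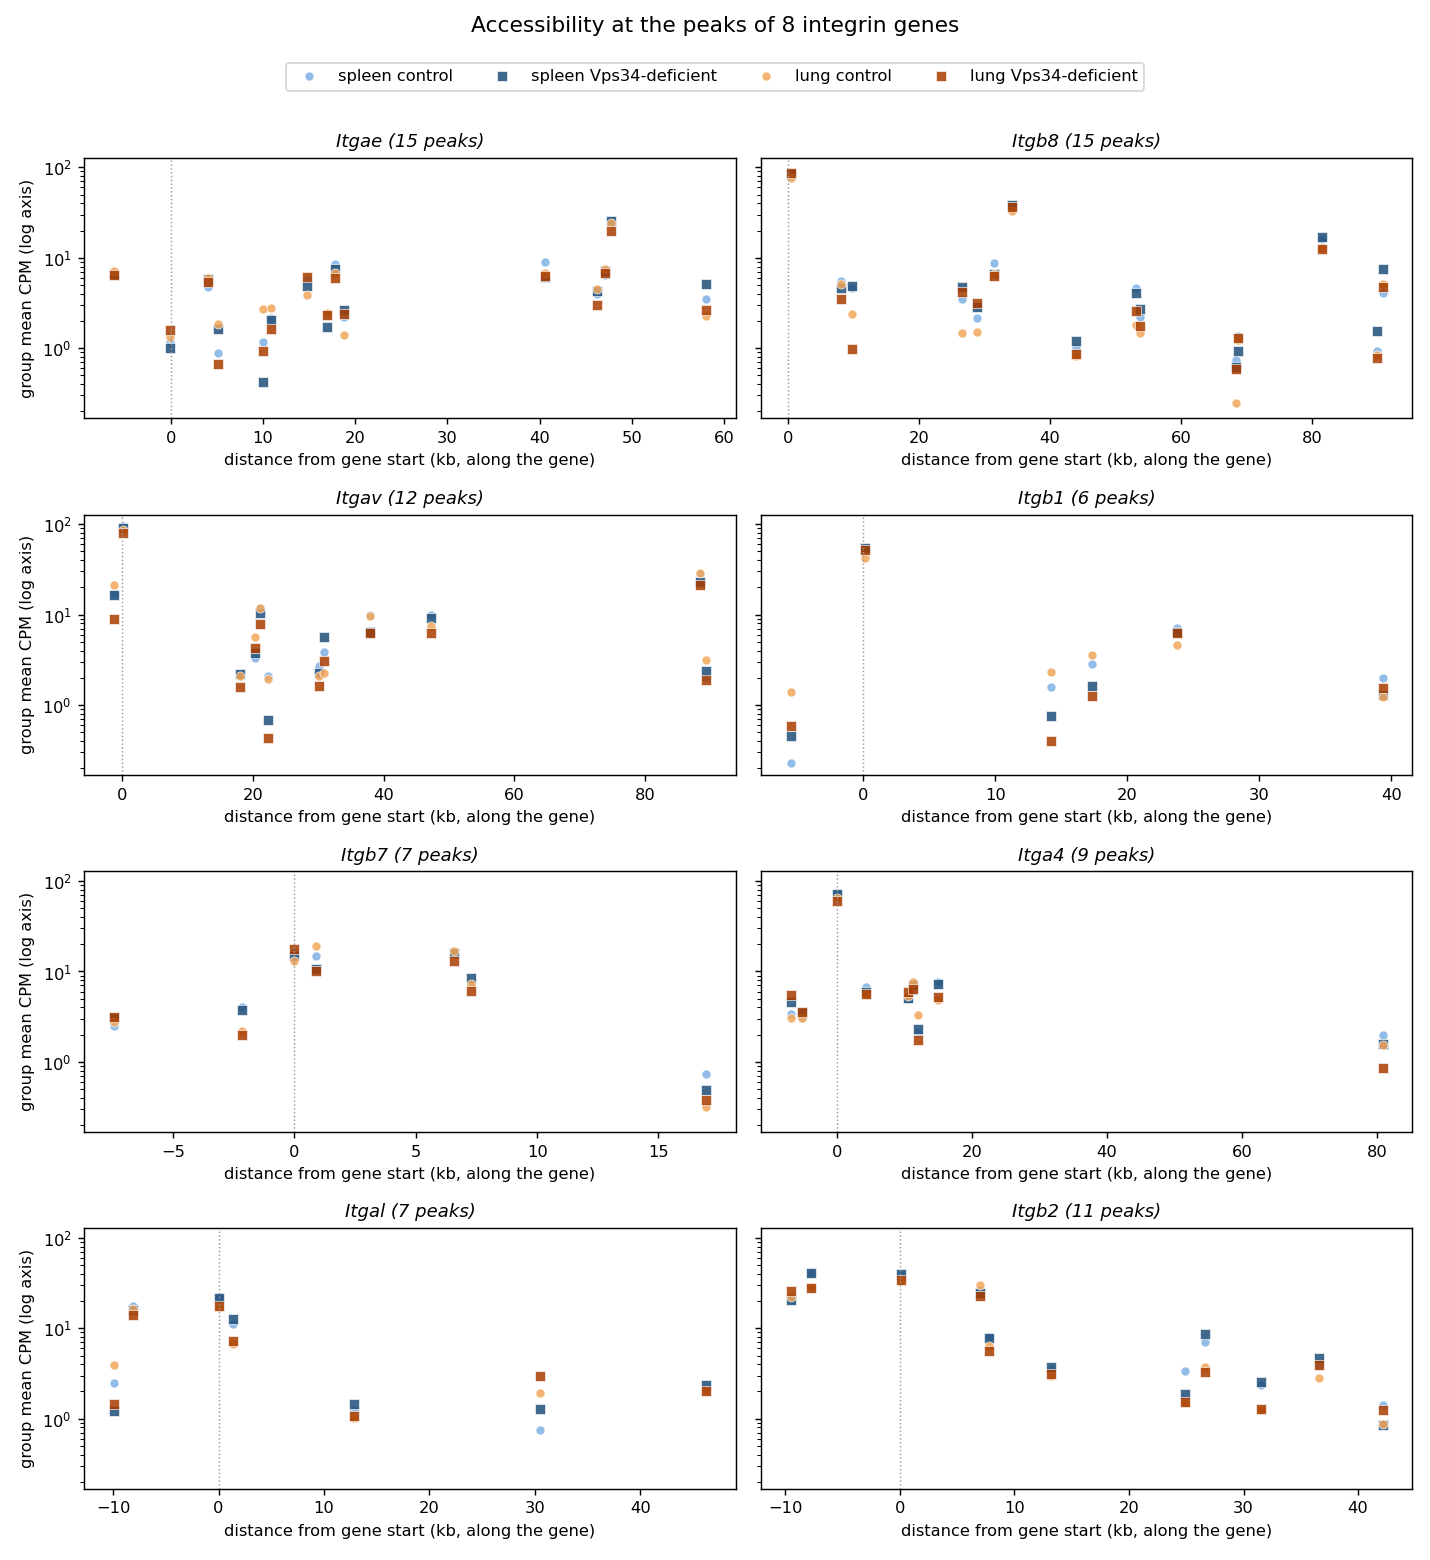
Mean accessibility of every peak of the 8 integrin genes (vertical axis, CPM, log scale) against the distance of the peak centre from the start of the gene (horizontal axis, kb, positive in the direction of transcription), with the 4 groups in different colours. Itgb8, Itgav, Itgb1 and Itga4 have 1 dominant peak at the start, between 50.6 and 88.1 CPM on average, whereas the highest peak of Itgae lies 47.8 kb into the gene.

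The peak at the start of the gene was wide and strong in most members. Per kb of peak, the level averaged over 10 libraries was 66.7 CPM per kb at Itgb8 (SD 5.95), 66.1 at Itgb2 (SD 7.03) and 65 at Itgav (SD 5.08). The ranges of these 3 genes over the libraries overlapped. Itga4 (45.4 CPM per kb, SD 4.29), Itgb7 (38.7, SD 4.69), Itgal (37.2, SD 4.88) and Itgb1 (34.6, SD 3.87) followed, each with a range that overlapped the next, and all libraries at Itgav lay above all at Itga4. The start of Itgae had the lowest level, 7.57 CPM per kb (SD 2.10), below every library of the other members. Its start peak was 161 bp wide and held 0.722 to 1.69 CPM. The highest Itgae peak was peak 14, with 24.1 of the 80.5 CPM summed over the gene on average, in a coding exon of Itgae that is also in the window of Haspin. The start peak held 81.4% of the summed signal of Itgb1, 65.6% of Itga4, 51.4% of Itgav and 48.7% of Itgb8, but 1.52% of that of Itgae.

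The 250 bases before the annotated start differ as widely between these genes in CG dinucleotides, and those of Itgav and Itgae are shown with each CG in capitals because their start peaks differ the most per kb among the alpha subunits. Both are on the plus strand of GRCm38, as are the genes.
Itgav (chr2:83724147-83724396, plus strand): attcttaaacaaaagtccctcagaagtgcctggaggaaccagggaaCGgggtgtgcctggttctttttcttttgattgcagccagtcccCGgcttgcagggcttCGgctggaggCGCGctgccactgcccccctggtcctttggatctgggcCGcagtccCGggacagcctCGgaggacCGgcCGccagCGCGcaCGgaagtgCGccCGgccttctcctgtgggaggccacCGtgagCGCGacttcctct
Itgae (chr11:73090333-73090582, plus strand): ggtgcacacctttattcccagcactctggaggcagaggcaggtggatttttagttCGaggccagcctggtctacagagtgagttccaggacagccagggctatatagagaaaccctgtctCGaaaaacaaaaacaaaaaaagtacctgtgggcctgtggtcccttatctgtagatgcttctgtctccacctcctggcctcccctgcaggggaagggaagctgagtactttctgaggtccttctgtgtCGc

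Itgav had 18 CG dinucleotides in this stretch and Itgae 3. Itgb1 had 21 and Itgb8 13, while Itga4 and Itgb2 had 6 each, Itgb7 5 and Itgal 4. The median over 21938 protein-coding genes was 8. Itgb2 had as high a level per kb at its start as Itgb8 with fewer CG dinucleotides, so level and CG count did not run in parallel over the 8 genes.

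Summed over all peaks of a gene, accessibility changed little. In each effect, 0 of the 8 gene sums were called (adjusted p below 0.05 with a log2 fold change beyond 0.5 in either direction) by edgeR's quasi-likelihood test, and 0 by the Wald test of DESeq2. Among 17628 genes, 0.216% were called between genotypes in spleen, 2.38% between genotypes in lung, 8.44% between tissues in control and 9.77% between tissues in Vps34-deficient Tregs. The averages over both tissues or both genotypes called 2.16% and 11.6%. At an unadjusted p under 0.05 there were 0 integrin genes in spleen, 2 between genotypes in lung, 0 between control tissues, 2 between Vps34-deficient tissues, 1 for the interaction of tissue and genotype, 1 for the average genotype effect and 3 for the average tissue effect, and DESeq2 gave the same counts except 2 for the last.

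Itgav was the member whose sum moved with genotype. Its summed signal was 196.5 and 177.0 CPM in control spleen, 183.1, 171.1, 163.5 and 172.3 in Vps34-deficient spleen, 176.0 and 188.1 in control lung and 137.3 and 150.7 in Vps34-deficient lung. Both Vps34-deficient lung libraries were the lowest of the 10. The log2 fold change in lung was -0.36 (SE 0.08, adjusted p = 0.0241, edgeR's quasi-likelihood test), below the fold threshold, and -0.11 in spleen (SE 0.07, adjusted p = 0.678). Itgae fell in the same direction in lung, with 78.2 and 84.6 CPM in controls and 72.0 and 71.5 in Vps34-deficient Tregs. These groups did not overlap, but the log2 fold change of -0.21 (SE 0.09) did not pass the test of edgeR (adjusted p = 0.206). Between tissues, Itgb2 held 155.5 to 157.8 CPM in spleen controls, 141.7 to 167.7 in Vps34-deficient spleen, 123.5 to 146.1 in lung controls and 123.3 to 136.8 in Vps34-deficient lung. Its average tissue effect was -0.18 on the log2 scale (SE 0.06, adjusted p = 0.0376), with every lung library below the spleen libraries of the same genotype.

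**Figure D2:**
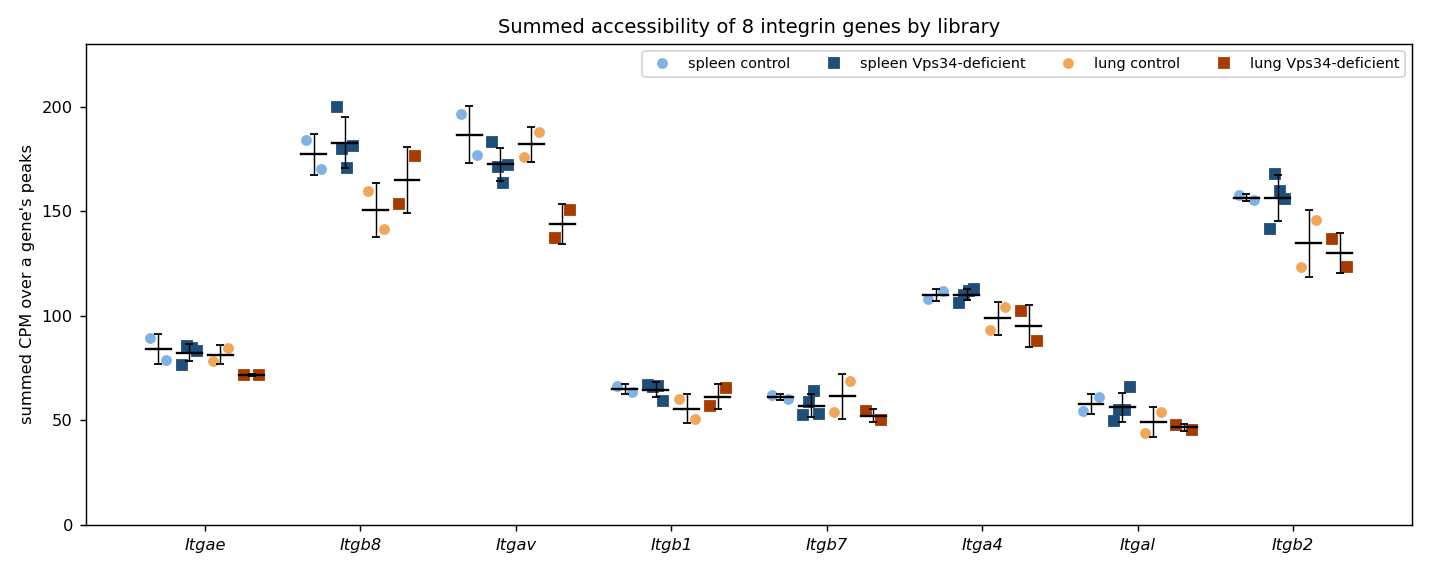
Summed CPM of all peaks of each integrin gene (vertical axis) in every library, by group (horizontal axis). Points are libraries, bars group means and whiskers SD. The Vps34-deficient lung libraries of Itgav, at 137.3 and 150.7, lie below all others of that gene.

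The libraries that share a tissue or genotype enter several comparisons at once, so the counts of called peaks are given for each comparison on its own. Between genotypes in spleen, 0 of the 81 tested peaks were called by edgeR's quasi-likelihood test, against 1.46% of all 97109 peaks, and DESeq2 also called 0. At an unadjusted p under 0.05 there were 13 (16.05%, against 14.3% of all peaks). Between genotypes in lung, 1 was higher in Vps34-deficient Tregs (1.22% of all peaks) and 3 were lower (3.74% of all peaks). At an unadjusted p under 0.05 there were 21 (25.9%, against 20.3%). The median log2 fold change of the 81 peaks was -0.11 in lung and 0.00 in spleen, beside 0.02 and 0.05 over all peaks. The shares called were close to those of all peaks.

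Between tissues, 1 of 81 peaks was higher in lung than in spleen of control mice (11.8% of all peaks) and 2 were lower (3.53% of all peaks). In Vps34-deficient mice 1 was higher (12.4% of all peaks) and 7 were lower (4.72% of all peaks). The integrin peaks thus had few calls in the direction that was more common over the genome. The median log2 fold change of the 81 peaks was -0.11 in control and -0.21 in Vps34-deficient Tregs, beside 0.04 and -0.03 over all peaks.

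In a model with tissue and genotype as separate terms, the average genotype effect called 1 peak higher in Vps34-deficient Tregs (3.52% of all peaks) and 8 lower (4.05% of all peaks). The average tissue effect called 2 higher in lung (18.4% of all peaks) and 9 lower (6.51% of all peaks). The interaction, which asks whether the genotype effect differs between the tissues, called 0 of 81 peaks and 0.0% of all peaks by edgeR's quasi-likelihood test. DESeq2 called 0 of the 81, and 8 had an unadjusted p under 0.05 in edgeR. No genotype effect at an integrin peak was therefore shown to differ between lung and spleen. DESeq2 made the same calls as edgeR in all 35 of 35 pairs of a called peak and an effect.

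**Figure D3:**
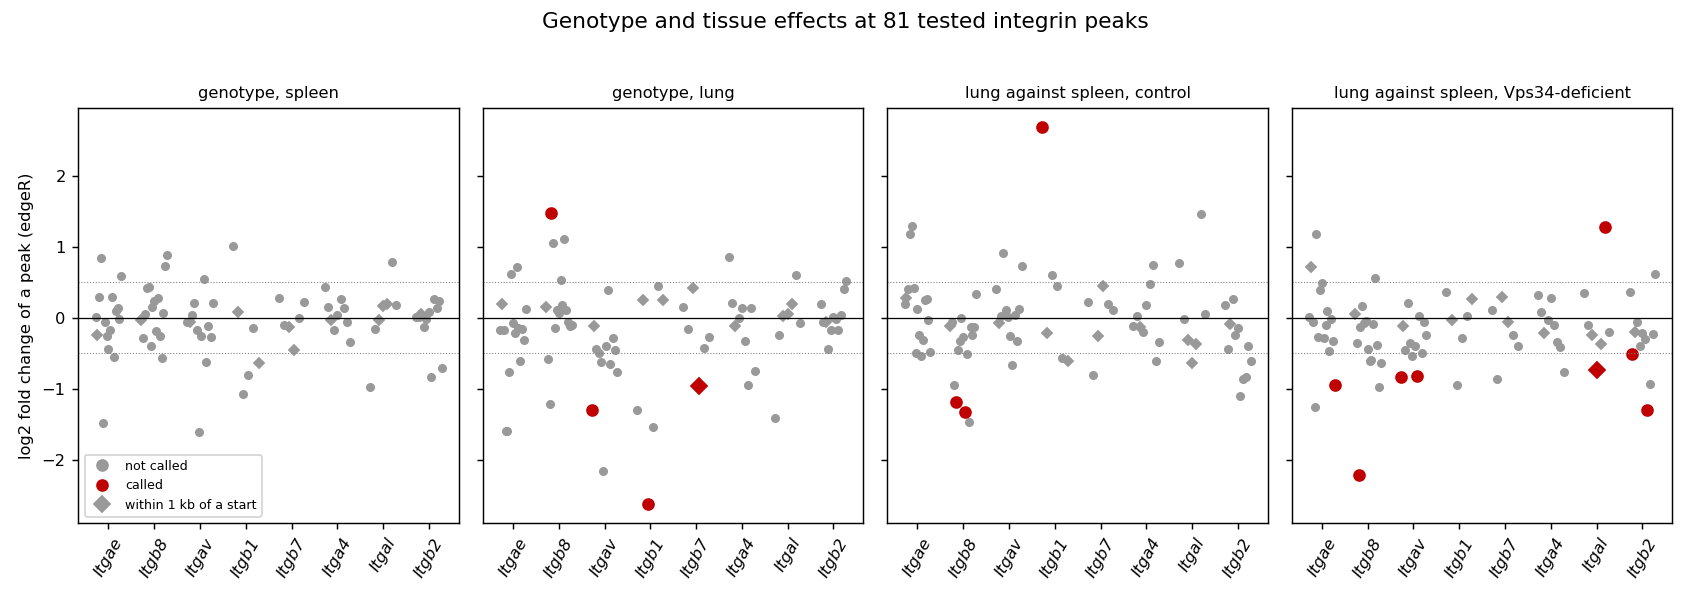
Log2 fold change (vertical axis) of the 81 tested integrin peaks, by gene (horizontal axis), for the genotype effect in spleen and in lung and the tissue effect in control and in Vps34-deficient Tregs. Red marks the called peaks (0, 4, 3 and 8) and diamonds the peaks within 1 kb of an annotated start.

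The main start peaks carried no call. In all 8 genes the highest peak at the start was called in 0 of the 7 effects by edgeR's quasi-likelihood test, and by DESeq2 too. At an unadjusted p under 0.05 in edgeR, those of Itgb1 (log2 fold change 0.26, adjusted p = 0.226) and Itgb7 (0.42, adjusted p = 0.18) stood out between genotypes in lung, that of Itgb7 in the interaction (0.55, adjusted p = 0.621), that of Itga4 between tissues in Vps34-deficient Tregs (-0.22, adjusted p = 0.0968) and those of Itga4 (-0.18, adjusted p = 0.0509) and Itgal (-0.27, adjusted p = 0.0601) in the average tissue effect. The median absolute log2 fold change in lung was 0.17 at the 12 peaks near a start and 0.40 at the other 69, beside 0.19 and 0.44 over all peaks of those kinds. Of the 12 peaks near a start, Itgb7 peak 4 was called between genotypes in lung and on average. Itgal peak 4 was called between tissues in Vps34-deficient Tregs and on average.

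Itgav and Itgb8 encode the subunits of the receptor that releases TGF-beta. The largest genotype difference by p-value was at Itgav peak 1, 405 bp wide and 1.29 kb upstream of the start (chr2:83722903-83723307). Spleen controls had 17.4 and 16.5 CPM and the Vps34-deficient spleen libraries 16.1, 17.2, 13.5 and 18.4. Lung controls had 21.2 and 21.6 CPM and Vps34-deficient lung Tregs 7.80 and 9.95. Spleen groups overlapped, whereas both Vps34-deficient lung libraries lay below every other library, at 41.5% of the lung control mean. The log2 fold change was -1.3 in lung (SE 0.20, adjusted p = 2.73e-04, edgeR's quasi-likelihood test) and -0.06 in spleen (SE 0.16, adjusted p = 0.926). The interaction was -1.24 (SE 0.25) with an unadjusted p of 5.31e-05 but an adjusted p of 0.201. Between tissues the peak was lower in lung than in spleen of Vps34-deficient mice (-0.83, SE 0.18, adjusted p = 0.00184) and 0.41 in control (adjusted p = 0.133). The lung call was kept in all 23 other settings tried (-1.40 to -1.05). The tissue call was lost without Vps34-deficient lung library 1 (-0.60, adjusted p = 0.0783). The called average genotype effect (-0.55, adjusted p = 0.0464) was lost without any 1 of the 4 lung libraries (-0.47 to -0.37), and with loess offsets, which remove trends of fold change with peak strength (-0.51, adjusted p = 0.0632).

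Just downstream, the start peak of Itgav (chr2:83723833-83725188) held 101.1 and 87.9 CPM in spleen controls, 96.0, 89.7, 89.4 and 85.7 in Vps34-deficient spleen, 81.01 and 89.8 in lung controls and 77.8 and 82.98 in Vps34-deficient lung. Control and Vps34-deficient libraries overlapped in both tissues. The log2 fold change in lung was -0.11 (SE 0.10, adjusted p = 0.542), so that the upstream peak moved without a call at the start. Farther into introns of Itgav, 2 weaker peaks were lower in Vps34-deficient Tregs in the average over both tissues. Peak 6 (chr2:83746533-83746718) held 2.50 and 1.65 CPM in spleen controls, 0.487, 1.22, 0.451 and 0.574 in Vps34-deficient spleen, 1.06 and 2.82 in lung controls and 0.650 and 0.212 in Vps34-deficient lung. All Vps34-deficient libraries lay below the controls of their tissue (average log2 fold change -1.79, SE 0.41, adjusted p = 0.00678), although counts were as low as 2. Peak 9 (chr2:83762087-83762539) was stronger and as regular, with 10.1 and 9.64 CPM in spleen controls against 6.82, 4.71, 6.68 and 7.46, and 8.72 and 10.5 CPM in lung controls against 5.85 and 6.77. Its average effect was -0.63 (SE 0.16, adjusted p = 0.0124), with groups that did not overlap in either tissue. Leaving out any 1 library kept both calls. The remaining Itgav call was in tissue, at peak 8 (chr2:83754950-83755701), which held 3.72 to 3.92 CPM in spleen controls, 4.28 to 6.82 in Vps34-deficient spleen, 2.13 to 2.40 in lung controls and 2.76 to 3.39 in Vps34-deficient lung. Lung lay below spleen in each genotype (average -0.76, SE 0.21, adjusted p = 0.00753). In Vps34-deficient mice alone the value was -0.82 (SE 0.28, adjusted p = 0.0398), and that call was lost without spleen control 2, Vps34-deficient spleen 1, 3 or 4 or either Vps34-deficient lung library (-0.91 to -0.61), and when only peaks with a mean CPM of at least 2 were tested (-0.74, adjusted p = 0.0695). Over the 12 Itgav peaks the median log2 fold change between genotypes was -0.47 in lung and -0.09 in spleen.

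Itgb8, the partner of Itgav in this receptor, had the only integrin peak called higher in Vps34-deficient lung. Peak 4 is intronic, 26.6 kb into the gene (chr12:119212019-119212360). It held 3.57 and 3.44 CPM in spleen controls, 4.87, 3.91, 4.33 and 5.74 in Vps34-deficient spleen, 1.70 and 1.27 in lung controls and 2.92 and 5.50 in Vps34-deficient lung. Lung controls were the lowest of the 10 libraries, with 16 and 18 counts, and no group overlapped its counterpart of the other genotype. The log2 fold change between genotypes was 1.48 in lung (SE 0.38, adjusted p = 0.0239, edgeR's quasi-likelihood test) and 0.42 in spleen (SE 0.28, adjusted p = 0.542), and the interaction was 1.06 (adjusted p = 0.648). The lung call was lost without lung control 2 (1.3) or Vps34-deficient lung 2 (1.05), with adjusted p between 0.184 and 0.203, and in a fit of lung alone (1.48, adjusted p = 0.149). The average genotype effect (0.78, adjusted p = 0.0428) was lost without any 1 of 8 libraries (0.56 to 0.93), namely all but Vps34-deficient spleen 2 and 3, with no count filter (0.75, adjusted p = 0.05004) and with halved counts (0.70, adjusted p = 0.0547). Between control tissues the same peak was lower in lung (-1.18, SE 0.38, adjusted p = 0.0329), a call lost without spleen control 1, spleen control 2 or lung control 2 (-1.26 to -1.06), and in a fit of control mice alone (-1.21, adjusted p = 0.0690).

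**Figure D4:**
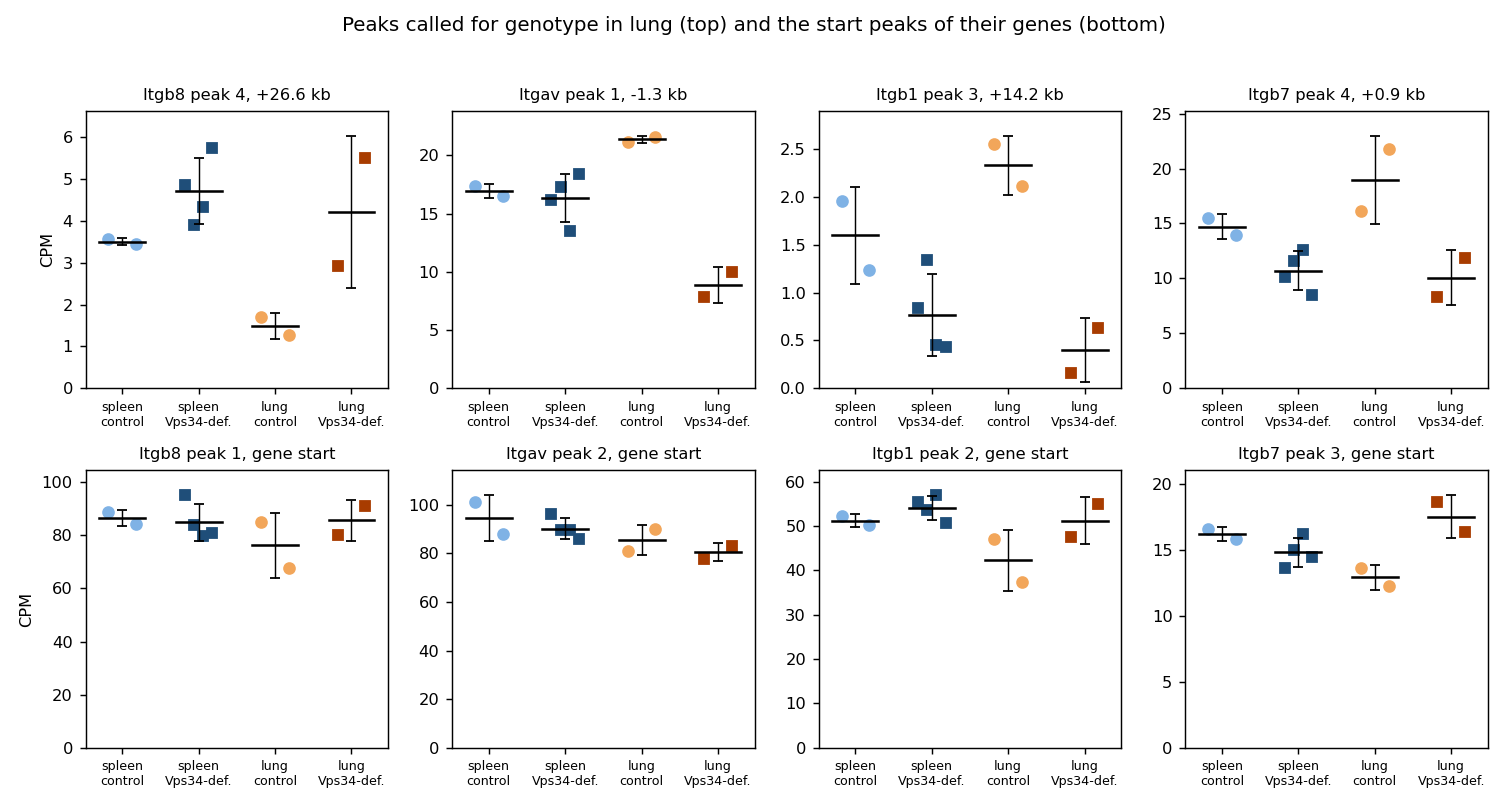
CPM (vertical axis) at the 4 peaks called between genotypes in lung (top row) and at the start peaks of the same genes (bottom row), by group (horizontal axis). Points are libraries, bars group means and whiskers SD. At Itgav peak 1 the Vps34-deficient lung libraries, at 7.80 and 9.95, lie below all others. The start peaks of Itgb7 and Itgb1 are higher in both Vps34-deficient lung libraries than in the lung controls, with adjusted p of 0.18 and 0.226 in edgeR's quasi-likelihood test.

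Both other called peaks of Itgb8 were tissue peaks. Peak 3 (chr12:119228767-119229184, intronic) held 5.04 and 4.27 CPM in spleen controls, 7.51, 4.53, 3.52 and 3.88 in Vps34-deficient spleen, 3.19 and 1.55 in lung controls and 1.299 and 0.635 in Vps34-deficient lung. Every lung library lay below every spleen library. The difference between tissues was -2.21 in Vps34-deficient mice (SE 0.43, adjusted p = 7.83e-04), -0.95 in control (SE 0.41, adjusted p = 0.116) and -1.55 on average (SE 0.31, adjusted p = 4.78e-04), and both calls were kept in all other settings tried. Peak 9 (chr12:119185479-119185794, intronic) held 4.99 and 4.27 CPM in spleen controls, 3.62, 4.89, 4.38 and 3.30 in Vps34-deficient spleen, 2.34 and 1.27 in lung controls and 2.60 and 2.54 in Vps34-deficient lung. Again every lung library was below every spleen library. The tissue effect was -1.33 in control (SE 0.36, adjusted p = 0.0119), -0.61 in Vps34-deficient mice (adjusted p = 0.181) and -0.91 on average (adjusted p = 0.00513). The control call was lost without spleen control 1 or lung control 2 (-1.31 to -1.0). The start peak of Itgb8 (chr12:119237762-119239015) ranged from 67.6 to 95.0 CPM, with overlap between groups in all 4 comparisons.

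Itgae encodes CD103, the alpha E subunit, and Itgb7 its partner beta 7. At the start of Itgae (peak 2, chr11:73090464-73090624) the libraries held 0.980 and 1.38 CPM in spleen controls, 0.722 to 1.53 in Vps34-deficient spleen, 1.28 and 1.41 in lung controls and 1.46 and 1.69 in Vps34-deficient lung. The tissues overlapped in each genotype, and the average tissue effect of 0.53 (SE 0.36, adjusted p = 0.298) did not pass the test. Among the other 14 peaks of Itgae, 2 were called. Peak 5 (chr11:73100500-73100706), in an intron 10.0 kb from the start, held 1.38 and 0.964 CPM in spleen controls, 0.278, 0.367, 0.451 and 0.574 in Vps34-deficient spleen, 1.91 and 3.53 in lung controls and 0.812 and 1.06 in Vps34-deficient lung. It was lower with Vps34 deficiency and higher in lung, without overlap in any of the 4 comparisons. The average genotype effect was -1.53 (SE 0.38, adjusted p = 0.0112, edgeR's quasi-likelihood test) and the average tissue effect 1.24 (SE 0.38, adjusted p = 0.0155), from counts of 4 to 50 a library. The first was lost without spleen control 1 or lung control 2 (-1.42 to -1.35), the second without spleen control 2 or lung control 2 (0.98 to 1.14) and with loess offsets (0.90, adjusted p = 0.0867). Peak 15 (chr11:73148382-73148869), downstream of the gene, held 3.21 and 3.72 CPM in spleen controls, 5.15, 4.404, 5.14 and 6.03 in Vps34-deficient spleen, 1.91 and 2.68 in lung controls and 2.27 and 2.96 in Vps34-deficient lung. Every lung library was below every spleen library. The tissue effect was -0.94 in Vps34-deficient mice (SE 0.29, adjusted p = 0.0250) and -0.74 on average (SE 0.22, adjusted p = 0.0125). The first was lost without Vps34-deficient spleen 4 or either Vps34-deficient lung library (-1.07 to -0.69), the second without Vps34-deficient lung 1 (-0.60).

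At Itgb7, peak 4 (chr15:102230856-102231243) lies in an intron 0.895 kb from the start and within the window of Rarg. It held 15.5 and 13.9 CPM in spleen controls, 10.2, 11.6, 12.6 and 8.47 in Vps34-deficient spleen, 16.2 and 21.8 in lung controls and 8.28 and 11.9 in Vps34-deficient lung. The Vps34-deficient libraries were below the controls in both tissues. The log2 fold change was -0.96 in lung (SE 0.23, adjusted p = 0.0125, edgeR's quasi-likelihood test), -0.46 in spleen (SE 0.18, adjusted p = 0.239) and -0.66 on average (SE 0.15, adjusted p = 0.00679). The lung call was lost without lung control 2 (-0.67) or Vps34-deficient lung 1 (-0.63) and in a fit of lung alone (-0.95, adjusted p = 0.0803), and the average call was kept without any 1 library. The start peak beside it (peak 3, chr15:102231764-102232158) had the opposite sign in lung, with 13.6 and 12.3 CPM in controls and 18.7 and 16.4 in Vps34-deficient Tregs, and 15.8 to 16.6 against 13.6 to 16.2 in spleen. Its lung groups did not overlap, but the difference of 0.42 (SE 0.18) had an adjusted p of 0.18. Peak 2 (chr15:102233987-102234238), 2.17 kb upstream, was lower in lung on average (-0.83, SE 0.26, adjusted p = 0.0161), with 3.57 and 4.55 CPM in spleen controls, 2.09 to 5.14 in Vps34-deficient spleen, 2.13 and 2.26 in lung controls and 1.69 and 2.27 in Vps34-deficient lung. The groups of the Vps34-deficient tissues overlapped, and the call was lost without spleen control 2 or Vps34-deficient lung 2 (-0.75).

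Itga4 and Itgb1 encode the subunits of VLA-4, which binds VCAM-1 and fibronectin. Itga4 had 0 of 9 peaks called in either genotype effect by edgeR or DESeq2, with 0 and 2 at an unadjusted p under 0.05 in spleen and lung. Its start peak (chr2:79254566-79256081) held 72.5 and 75.7 CPM in spleen controls, 70.8 to 75.1 in Vps34-deficient spleen, 59.96 and 68.9 in lung controls and 56.8 and 63.7 in Vps34-deficient lung. Lung lay below spleen in each genotype, by an average of -0.18 on the log2 scale (SE 0.07, adjusted p = 0.0509). Intronic peak 8 (chr2:79270082-79270559) was called lower in lung on average (-0.50, SE 0.18, adjusted p = 0.0383), with 8.11 and 7.16 CPM in spleen controls, 6.32 to 8.30 in Vps34-deficient spleen, 5.53 and 4.09 in lung controls and 6.66 and 3.81 in Vps34-deficient lung. Vps34-deficient tissues overlapped, and the call was lost without spleen control 1 or 2, lung control 2 or Vps34-deficient lung 2 (-0.49 to -0.37), with a mean CPM of at least 2 (-0.46, adjusted p = 0.0640) and with loess offsets (-0.47, adjusted p = 0.0538).

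Itgb1, the beta subunit with the most partners, had 3 called peaks, all weak. Peak 3 lies in an intron 14.2 kb from the start. It held 1.96 and 1.24 CPM in spleen controls, 0.835, 1.35, 0.451 and 0.431 in Vps34-deficient spleen, 2.55 and 2.12 in lung controls and 0.162 and 0.635 in Vps34-deficient lung. Lung groups were far apart and spleen groups overlapped. The log2 fold change was -2.62 in lung (SE 0.72, adjusted p = 0.0334, edgeR's quasi-likelihood test) and -1.07 in spleen (SE 0.51, adjusted p = 0.338), but Vps34-deficient lung had 2 and 6 counts. The lung call was lost without any 1 of the spleen controls or the 4 lung libraries (-3.72 to -1.81, adjusted p 0.0505 to 0.259) and in a fit of lung alone (-2.61, adjusted p = 0.0689). The average genotype effect of -1.60 (adjusted p = 0.0213) was lost without spleen control 1 or Vps34-deficient lung 1 (-1.66 to -1.29). Peak 4 (chr8:128702792-128703127), in the same intronic stretch, held 3.30 and 2.34 CPM in spleen controls, 2.09, 2.20, 0.812 and 1.44 in Vps34-deficient spleen, 2.55 and 4.66 in lung controls and 1.46 and 1.06 in Vps34-deficient lung. No control overlapped the Vps34-deficient libraries of its tissue. The average genotype effect was -1.09 (SE 0.31, adjusted p = 0.0257), lost without spleen control 1, lung control 2 or either Vps34-deficient lung library (-1.078 to -0.89).

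Upstream of Itgb1, peak 1 (chr8:128680082-128680222) was the only integrin peak called higher in lung of control mice. It held 0.1783 and 0.276 CPM in spleen controls, 0.417, 0.979, 0.271 and 0.144 in Vps34-deficient spleen, 1.28 and 1.48 in lung controls and 0.325 and 0.847 in Vps34-deficient lung. Both lung controls were above all other libraries. The tissue effect in control was 2.68 (SE 0.86, adjusted p = 0.0352), resting on 4 and 4 counts in control spleen and 12 and 21 in control lung, and it was lost without any 1 of these 4 libraries (2.27 to 2.93) and with loess offsets (2.05, adjusted p = 0.116). The start peak of Itgb1 (chr8:128685021-128686485), which held most of the signal of the gene, had 50.3 and 52.2 CPM in spleen controls, 50.6 to 56.9 in Vps34-deficient spleen, 37.5 and 47.2 in lung controls and 47.4 and 55.0 in Vps34-deficient lung. The lung groups were separate by a small margin, and the difference of 0.26 (SE 0.12, adjusted p = 0.226) did not pass the test.

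Itgal and Itgb2 encode LFA-1, and their calls were mainly between tissues. At Itgal, peak 4 (chr7:127297309-127297976), which covers a coding exon 1.38 kb from the start, held 10.96 and 11.4 CPM in spleen controls, 9.32, 12.1, 12.6 and 16.1 in Vps34-deficient spleen, 5.74 and 7.76 in lung controls and 7.47 and 6.98 in Vps34-deficient lung. All lung libraries lay below all spleen libraries, by -0.69 on average (SE 0.16, adjusted p = 0.00194, edgeR's quasi-likelihood test). Leaving out any 1 library kept that call. The effect in Vps34-deficient mice alone (-0.74, adjusted p = 0.0196) was lost without Vps34-deficient spleen 4 or either Vps34-deficient lung library (-0.73 to -0.60). Intronic peak 6 (chr7:127326669-127326879) went the other way, with 0.535 and 0.964 CPM in spleen controls, 0.856 to 1.53 in Vps34-deficient spleen, 2.34 and 1.55 in lung controls and 2.60 and 3.39 in Vps34-deficient lung. It was above spleen in each lung library (average 1.35, SE 0.32, adjusted p = 0.00192), again in every set of 9 libraries. In Vps34-deficient mice it was 1.28 (adjusted p = 0.0288), a call lost without Vps34-deficient spleen 2 or 3 or either Vps34-deficient lung library (1.082 to 1.52), and with loess offsets (1.04, adjusted p = 0.0748). The start peak (chr7:127295990-127296531) held 19.8 to 23.3 CPM in spleen and 15.9 to 18.3 in lung, a difference of -0.27 (SE 0.11) with an adjusted p of 0.0601.

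Of the 7 peaks of Itgal, peak 1 alone was called between genotypes. It lies 9.93 kb upstream (chr7:127286233-127286431) and held 1.60 and 3.31 CPM in spleen controls, 1.25, 0.367, 1.62 and 1.65 in Vps34-deficient spleen, 3.62 and 4.23 in lung controls and 2.27 and 0.635 in Vps34-deficient lung. The lung groups were separate and the spleen groups overlapped. The average genotype effect was -1.15 (SE 0.36, adjusted p = 0.0406), lost without spleen control 2, Vps34-deficient spleen 1 or 2, lung control 2 or Vps34-deficient lung 2 (-1.19 to -0.91).

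Itgb2 had 3 tissue calls among its 11 peaks and 0 genotype calls by edgeR or DESeq2, with 1 peak at an unadjusted p under 0.05 in each tissue. Peak 8 (chr10:77556620-77557079, intronic) held 8.29 and 5.92 CPM in spleen controls, 6.96, 7.71, 7.22 and 12.5 in Vps34-deficient spleen, 3.62 and 3.81 in lung controls and 4.06 and 2.54 in Vps34-deficient lung. Lung was below spleen in every library, by -1.10 on average (SE 0.21, adjusted p = 3.39e-04, edgeR's quasi-likelihood test), and in Vps34-deficient mice by -1.3 (SE 0.29, adjusted p = 0.00278). The latter call was lost without Vps34-deficient lung 2 (-0.96), and the average call was kept in all other settings tried. Peak 2 (chr10:77522216-77522789), 7.75 kb upstream and in the window of Fam207a, was much stronger, with 40.3 and 41.7 CPM in spleen controls, 37.6 to 44.9 in Vps34-deficient spleen, 28.2 and 29.4 in lung controls and 30.2 and 25.7 in Vps34-deficient lung. Its tissue effect was -0.50 in Vps34-deficient mice (SE 0.11, adjusted p = 0.00334) and -0.43 in control (adjusted p = 0.0222), on either side of the fold threshold. The call was lost without spleen control 2, lung control 1 or Vps34-deficient lung 2 (-0.44 to -0.33). With a mean CPM of at least 2, in a fit of Vps34-deficient mice alone and with loess offsets the value of -0.49 to -0.42 fell short of the fold threshold. Peak 9 (chr10:77561608-77561908, intronic) was lower in lung on average (-0.88, SE 0.30, adjusted p = 0.0255), with 1.81 to 3.59 CPM in spleen and 1.20 to 1.299 in lung, and was lost without spleen control 2, Vps34-deficient spleen 4 or either Vps34-deficient lung library (-0.89 to -0.77). The start peak of Itgb2 (chr10:77530042-77530607) held 36.0 to 45.5 CPM in spleen and 32.3 to 35.4 in lung, without a call.

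**Figure D5:**
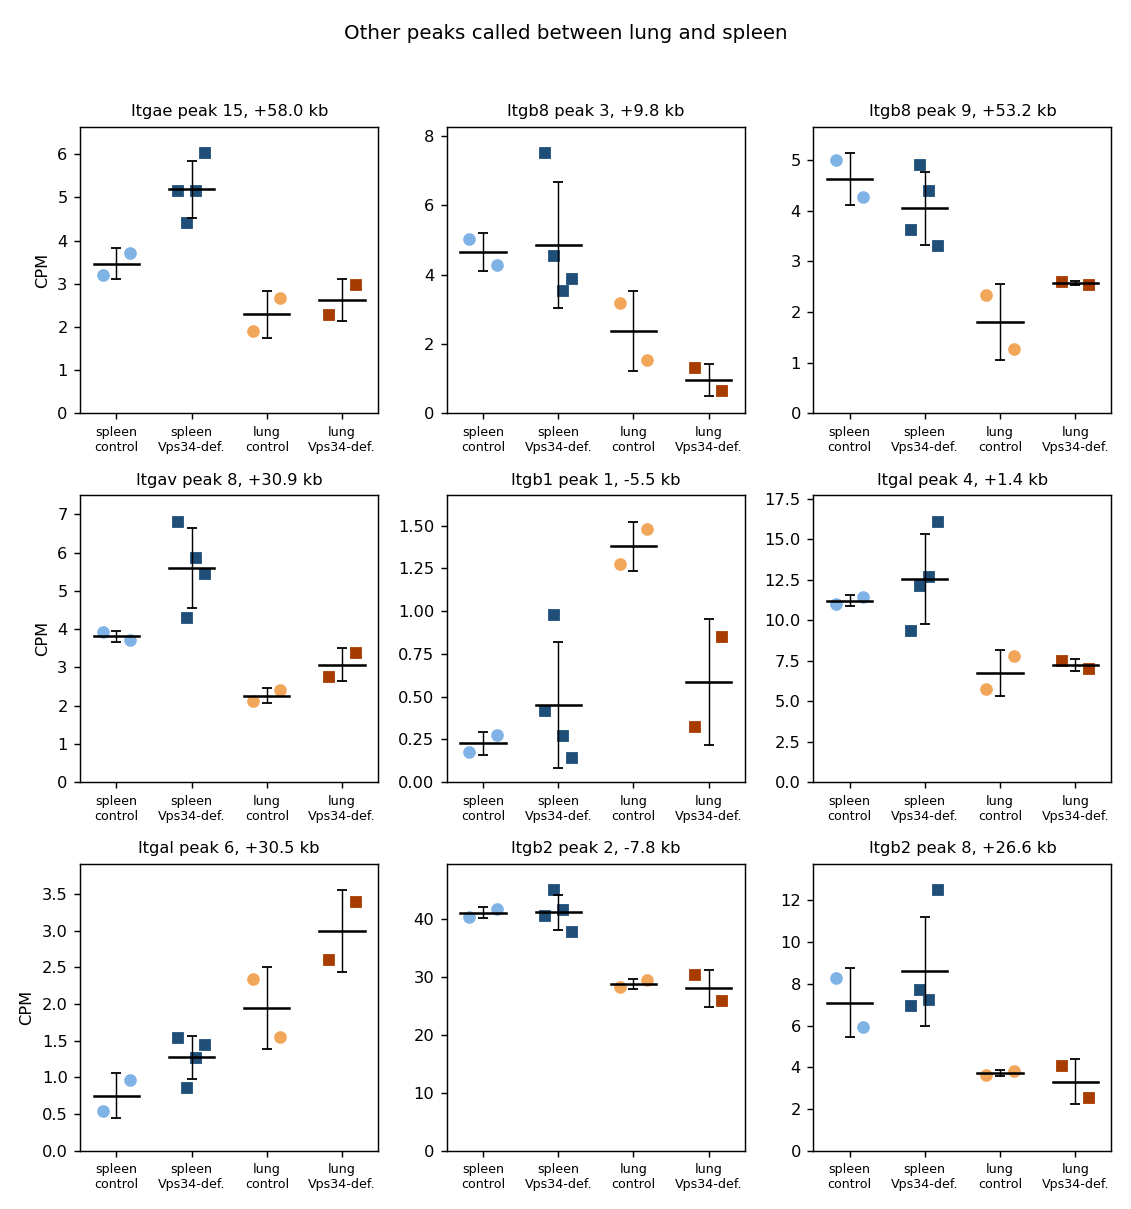
CPM (vertical axis) at the 9 integrin peaks that were called between spleen and lung in 1 genotype and not between genotypes in lung, in every library by group (horizontal axis). Points are libraries, bars group means and whiskers SD. At Itgb8 peak 3 and Itgb2 peak 8 all lung libraries lie below all spleen libraries, and at Itgal peak 6 all lie above.

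Beside the lung genotype calls, summed promoter signal of the myeloid markers, which comes from Cd14 and Spi1 as the other 4 of 6 had no peak, was 24.0 to 26.0 CPM in lung controls and 15.1 to 17.8 in Vps34-deficient lung, and 21.7 to 23.8 against 15.2 to 20.4 in spleen. Between spleen genotypes the B cell markers (14.4 to 15.4 CPM in controls and 15.6 to 19.2) and the epithelial markers (24.9 to 25.6 and 20.5 to 24.6) were separate too, and the other lists overlapped. The CD8 and NK cell markers (4 of 6 with a peak) had 32.9 to 36.8 CPM in lung controls and 43.4 to 50.2 in Vps34-deficient lung. The ranges of B cell (2 of 6), epithelial (2 of 6) and endothelial (3 of 6) markers overlapped between the lung genotypes. Beside the tissue calls in control mice, the CD8 and NK cell markers had 39.8 to 48.1 CPM in spleen and 32.9 to 36.8 in lung, the myeloid markers 21.7 to 23.8 and 24.0 to 26.0, and the epithelial markers 24.9 to 25.6 and 18.7 to 24.3, and the other lists overlapped. In Vps34-deficient mice the summed Treg and T cell markers were 262.3 to 311.4 CPM in spleen and 226.3 to 259.4 in lung, and the other lists overlapped. Among single markers, Nkx2-1 of epithelium (0.361 to 1.11 CPM in spleen and 1.299 to 2.12 in lung) and Cdh5 of endothelium (0.181 to 1.07 and 1.13 to 3.39) were higher in every lung library than in every spleen library, and Ikzf2, the Treg marker that encodes Helios, was lower (68.2 to 77.0 and 58.0 to 68.0). Epcam of the epithelial list overlapped between the tissues (19.7 to 24.8 CPM in spleen and 16.8 to 22.6 in lung). So did Pecam1 (25.49 to 29.65 and 24.04 to 29.56) and Kdr (4.46 to 6.32 and 2.76 to 6.63) of the endothelial list. The other measured Treg and T cell markers overlapped as well. The part of these markers in the integrin results was not tested.

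Other genes of integrin biology were given by their summed peaks. Of 18 other integrin subunits, 0 were called between genotypes in spleen by edgeR's quasi-likelihood test and by DESeq2, with 2 at an unadjusted p under 0.05, and in Vps34-deficient lung 1 was higher and 2 were lower by both tools, with 8 at an unadjusted p under 0.05. Over all gene sums 0.216% were called in spleen and 2.38% in lung. Itgb6, the epithelial partner of alpha v, rose by 0.59 (SE 0.15, adjusted p = 0.0322). Itgam, the alpha subunit of the myeloid receptor Mac-1, fell by 0.92 (SE 0.19, adjusted p = 0.0151), with 14.9 and 19.3 CPM in lung controls against 9.91 and 8.47. Itga2, a collagen receptor subunit, fell by 0.50 (SE 0.08, adjusted p = 0.00293), with 276.0 and 259.3 CPM in lung controls against 176.6 and 207.2. The median log2 fold change of the 18 genes in lung was -0.16, beside -0.05 over all genes. Between tissues all calls were higher in lung by both tools, 4 of 18 in control and 5 of 18 in Vps34-deficient mice, beside 8.44% and 9.77% of all gene sums. Called in both genotypes were Itga10 (0.61 and 0.53), Itgax (1.0 and 0.91) and Itgad, whose average tissue effect was 0.89 (SE 0.12, adjusted p = 3.54e-05). Itgb3 was called in control mice and not in Vps34-deficient mice, and Itga1 and Itgb6 the other way round, whereas the interaction of tissue and genotype called 0 of the 18 genes by both tools, with 2 at an unadjusted p under 0.05. Itgb3 and Itga1 were named after their values were seen. Itgax encodes CD11c, the integrin alpha X subunit.

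Of 32 genes that activate integrins or link them to actin, 0 were called between genotypes in either tissue by edgeR or DESeq2, with 3 at an unadjusted p under 0.05 in spleen and 9 in lung by edgeR. In the average genotype effect edgeR called 0, with 9 at an unadjusted p under 0.05, and DESeq2 called 1, Fermt2, higher. Over all gene sums the shares called were 0.216% and 2.38% between genotypes and 8.44% and 9.77% between tissues, for this list and the next ones. Between tissues 2 were higher in lung of control mice, Parva (1.71, SE 0.33, adjusted p = 0.00279), an actin-binding partner of integrin-linked kinase, and Tln2 (0.95, SE 0.27, adjusted p = 0.0294), a talin. In Vps34-deficient mice Parva (1.31, adjusted p = 0.00289) and Fermt2, kindlin-2 (1.01, adjusted p = 0.00867), were higher. DESeq2 also called Fermt2 higher in lung of control mice, with 2.85 and 3.58 CPM in spleen against 5.95 and 5.50 in lung. The median of the 32 genes was 0.07 in control and -0.08 in Vps34-deficient mice, beside 0.01 and -0.05 over all genes. Of 8 genes that hold or process latent TGF-beta, Ltbp1 was higher in Vps34-deficient lung (0.57, SE 0.14, adjusted p = 0.0335), with 38.5 and 38.0 CPM in controls against 62.9 and 52.0. DESeq2 also called 2 of the 8 lower there, Nrros and Ltbp3, which were named after their values were seen. Tgfb2 was higher in lung than spleen of control mice (0.71, adjusted p = 0.00562). Of 14 integrin ligands 12 could be tested, since Vcam1 and Spp1 had no peak. F11r, the junctional ligand of LFA-1, was lower in Vps34-deficient lung (-0.88, SE 0.18, adjusted p = 0.0115), with 24.9 and 23.7 CPM in controls against 10.9 and 16.2. Fn1, fibronectin, was higher in lung of control mice (1.27, SE 0.26, adjusted p = 0.00480).

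Across the 10 libraries, the summed log2 CPM of some members ran together, given here as a description with no test, since the libraries fall into 4 groups of tissue and genotype and libraries of a group are not independent points. Pearson's r was 0.92 between Itga4 and Itgb2, 0.85 between Itga4 and Itgal, 0.84 between Itgb8 and Itgb1 and 0.81 between Itgal and Itgb2. The partners in named receptors were less alike in part, with 0.71 for Itgae and Itgb7, 0.22 for Itgav and Itgb8 and 0.07 for Itga4 and Itgb1. The lowest of the 28 pairs was Itgb8 and Itgb7 (-0.45). Over 17625 to 17627 other genes, the profile most like that of Itgae was Prdm1 (r = 0.97), which encodes Blimp-1. The closest to Itgb8 was Mtif2 (0.98), to Itgav Olfr547 (0.97), to Itgb1 Zfp459 (0.97), to Itgb7 Rbpms2 (0.96), to Itga4 Akt1s1 (0.98), to Itgal Shank1 (0.97) and to Itgb2 Rmi1 (0.99).

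In the central 300 bases of the 82 peaks, the AP-1 motif was present in 14 (17.1%, against 13% of 97250 windows of all peaks) and the RUNX motif in 27 (32.9%, against 26.5%). The STAT motif was in 8 (9.76%, against 9.30%) and a NF-kB consensus in 1 (1.22%, against 2.66%). None held the ETS motif CCGGAAGT (1.47% of all windows), the SMAD palindrome GTCTAGAC (0.279%), the cAMP response element TGACGTCA (0.846%) or a PPAR consensus of the DR1 type (0.411%). All motifs were read on both strands. A match is a string of letters and no evidence of binding.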

How the data were processed

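Per the study's methods, the authors trimmed paired-end reads, aligned them with BWA, set aside duplicates marked by Picard, shifted read ends for the Tn5 insertion site, kept nucleosome-free fragments, called peaks in each sample with MACS2, kept those that recurred in 50% or more of a genotype's replicates, merged overlapping peaks and counted reads with bedtools. The submitters' processing notes name cutadapt 1.9, Picard 1.65, MACS2 2.1.0.20150603, SAMtools and bedtools. The deposited values are whole-number counts per peak and library, without normalisation. The notes name GRCm38 and the methods an earlier assembly. Peaks covered 51.1% of 21992 starts of protein-coding genes on GRCm38 but 2.66% to 2.81% when moved by 100000 bases, so GRCm38 and its GENCODE annotation were used, with positions from 1.

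CPM was computed from the deposited counts. Peaks that passed filterByExpr were scaled with TMM factors (0.959 to 1.04) and tested over all 97109 peaks with glmQLFit and glmQLFTest of edgeR 4.0.16 (R 4.3.3) and Benjamini-Hochberg adjustment, in a model of 4 groups or, for average effects, of tissue and genotype. Calls needed an adjusted p below 0.05 and a log2 fold change beyond 0.5 in either direction, as in the study. Counts of all peaks of a gene were summed and tested in the same way over 17628 genes. Within groups, Pearson's r between libraries was 0.927 to 0.963, and the chi-square over its degrees of freedom was 2.77 to 5.37. Mostly even counts raise this chi-square by themselves, so it overstates the excess over counting noise. Values are given in full for the highest peak within 1 kb of a start of each gene and for each called peak (at most 3 per gene, effect and direction, by p-value), for the 3 genes of smallest p per list of related genes, and the profiles most alike are those of highest r over the 10 libraries, on log2 CPM with a pseudocount of 0.1. The members, lists and tests were chosen with earlier results of these data known. Alternatives were other scalings, DESeq2 1.42.0 with its Wald test, halved counts, other count filters, loess offsets, autosomes alone, a chromosome Y covariate, a replicate block, 1 tissue or genotype alone, other thresholds and windows, and leaving out each library. The sequence of 1 called peak and 1 marker gene are not reported here.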

Additional observations from a re-analysis of the deposited data

Results flagged for a closer look

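In 37 series of the 4 Vps34-deficient spleen libraries, which were the only group large enough to look for a library apart from the rest, 3 had such a library by Dixon's criterion, where chance gives about 1 in 20. Itgav peak 6 held 1.22 CPM in library 2, and 0.451 to 0.574 CPM in the other 3. Itgb2 peak 8 held 12.5 CPM in library 4, against 6.96 to 7.71 in the other 3. The summed peaks of Itgb1 held 59.2 CPM in library 4, against 66.1 to 66.8 in the other 3. The last 2 come from the same library, and no cause was tested.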

How the results depend on the processing

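Among the values of named peaks under other settings, 649 kept their direction and call, 126 kept their direction and lost the call, and none reversed. Gene sums kept 0 calls in every setting tried. The interaction called 0 integrin peaks in every setting.

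Fitting 1 tissue or 1 genotype alone gave 1 higher and 2 lower genotype calls in spleen, 0 higher and 1 lower in lung, and 1 lower tissue call in control. A mean CPM of at least 2 left 0 higher tissue calls in control, in Vps34-deficient Tregs and on average, and 5 lower average genotype calls. Loess offsets left 0, 0 and 1 higher tissue calls in control, in Vps34-deficient Tregs and on average. Library size scaling, no count filter, halved counts and autosomes alone each gave 5 lower tissue calls in control. Halved counts also gave 0 higher tissue calls in control, and, like no count filter, 0 higher average genotype calls. An absolute log2 fold change above 1 left 2 lower tissue calls in Vps34-deficient Tregs, 0 higher and 5 lower average genotype calls and 2 lower average tissue calls. The 2 kb window left 0 higher tissue calls in control, as it drops the peak upstream of Itgb1, and assignment to the nearest start left 4 lower tissue calls in Vps34-deficient Tregs. The cause of the other shifts was not tested.

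With 1 library left out, the genotype calls ranged from 0 to 1 higher and 0 to 0 lower in spleen (1 higher without either lung control), and from 0 to 2 higher and 1 to 5 lower in lung. In lung there were 0 higher without lung control 2 or Vps34-deficient lung 2, 2 higher and 5 lower without lung control 1, and 1 lower without lung control 2 or Vps34-deficient lung 1. Tissue calls ranged from 0 to 1 higher and 1 to 5 lower in control, from 0 to 1 higher and 2 to 8 lower in Vps34-deficient Tregs, and from 1 to 4 higher and 6 to 12 lower on average. Average genotype calls ranged from 0 to 1 higher and 4 to 8 lower.

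The labels number the libraries 1 and 2 in every group, and the main fit did not take the numbers to pair them. Between spleen and lung, r of the deviations of same-numbered libraries was 0.00451 in control and -0.0119 and 0.038 in Vps34-deficient Tregs. In a group of 2 libraries both deviate by the same amount in opposite directions, so this check cannot decide whether they are paired. Within each genotype, however, same-numbered spleen and lung libraries were alike in chromosome Y signal, at 56.9 and 67.6 CPM in control 1, 7.03 and 12.8 in control 2, 9.88 and 21.4 in Vps34-deficient 1 and 64.8 and 63.4 in Vps34-deficient 2, and whether they share an animal is not given in the labels. With the replicate number as a block, calls were 0 higher and 2 lower between genotypes in lung, 1 higher and 1 lower between tissues in control, 0 higher and 4 lower between tissues in Vps34-deficient Tregs, 0 higher and 5 lower for the average genotype effect, 2 higher and 6 lower for the average tissue effect, and 0 in spleen and for the interaction. The calls of 15 named peaks and effects were lost with it. They were, with their adjusted p, the average tissue effect at Itga4 peak 8 (0.0581), Itgae peak 15 (0.0549), Itgb2 peak 9 (0.132) and Itgb7 peak 2 (0.112), the tissue effect in Vps34-deficient Tregs at Itgae peak 15 (0.151), Itgal peaks 4 (0.212) and 6 (0.135) and Itgav peak 8 (0.165), the tissue effect in control at Itgb8 peak 4 (0.0646), the genotype effect in lung at Itgb1 peak 3 (0.0613) and Itgb8 peak 4 (0.0627), and the average genotype effect at Itgav peak 1 (0.0688), Itgb1 peaks 3 (0.105) and 4 (0.119) and Itgb8 peak 4 (0.101).

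Weak peaks rest on few counts. Groups of 2 libraries give wide errors. The calls at Itgb1 peak 1 between control tissues and at Itgb1 peak 3 between lung genotypes rest on 2 to 30 counts a library.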
